A study of Mus musculus with 12 samples.

Results

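The genes described here are 28 mouse genes that make cholesterol, sense it or move it within the cell. They were chosen by symbol from a fixed list, matched through their Ensembl identifiers, and all 28 were found among 49585 gene identifiers in the liver tables and 55401 in the macrophage tables. They comprise 4 genes that control sterol regulatory element-binding proteins (Srebf2, Scap, Insig1, Insig2), 18 enzymes of the synthesis route from acetyl-CoA to cholesterol, and 6 genes of sterol transport, oxysterol formation and sterol disposal (Stard4, Ch25h, Mylip, Npc1, Npc2, Soat1).

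The series measured polyA RNA by sequencing in 12 samples from C57BL/6 mice, in 4 groups of 3. Liver came from untreated wild-type mice or from wild-type mice given lipopolysaccharide (LPS, the bacterial endotoxin) for 2 h. Peritoneal macrophages, phagocytes from the abdominal cavity, were exposed for 72 h to a lentivirus carrying either a negative control hairpin (shNC) or a hairpin against the long noncoding RNA Gm26917 (shGm26917), and then to LPS for 2 h. Every macrophage sample therefore had lentivirus and LPS, and the macrophages hold no sample without LPS. The LPS dose and route, the age and sex of the mice, and whether replicates came from separate animals or cultures are unstated in the labels, so p-values measure the spread between these samples, which may be technical. Gm26917 itself was not analysed here, and the extent of its knockdown was not checked.

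Cells make cholesterol from acetyl-CoA through mevalonate, squalene and lanosterol. When sterols in the endoplasmic reticulum are low, SCAP carries the transcription factor SREBP2, the product of Srebf2, to the Golgi, where it is cut and freed to switch on the synthesis genes together with the factors NF-Y and Sp1. When sterols are high, INSIG proteins hold SCAP back, and 25-hydroxycholesterol, the product of Ch25h, is a strong signal for this retention. The liver makes much of the body's cholesterol, and in macrophages Ch25h is known as an interferon- and LPS-inducible gene.

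Total counts per library ran from 17322770 to 20913964 in liver and from 15605311 to 18062853 in macrophages. Summed hepatocyte markers lay between 93600 and 140000 CPM (read counts relative to library totals, which were scaled by edgeR's TMM factors, throughout) in untreated liver and between 85600 and 126000 in LPS liver. Summed neutrophil markers were 3.37 to 8.73 CPM in untreated liver and 225 to 316 in LPS liver, and 8 of the 9 tested were higher. Summed monocyte and macrophage markers were 212 to 230 CPM against 376 to 605. In the macrophage libraries the 10 hepatocyte markers summed to at most 0.469 CPM, with Ttr, Fgb, Cps1 and Tat at 0, while monocyte and macrophage markers summed to 13400 to 28300. T and NK cell markers summed to at most 1.22 CPM, and B cell markers to 199 to 629 CPM with shNC and 121 to 296 with shGm26917. The neutrophil list summed to 783 to 1240 CPM with shNC and 626 to 753 with shGm26917. Mmp9, Csf3r and Mmp8 were among its detected genes, while Ly6g, Retnlg and Ngp were at 0. The part of these cell types in the results was not tested. In bulk samples such as these, fewer cells of a type and less RNA per cell cannot be told apart.

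A library in each comparison stood apart for these genes. Untreated liver replicate 3 was the highest of its group for 16 of the 17 synthesis enzymes tested, against 34.6% of all tested genes, and at least 2 times either of the other untreated libraries for 12 of 17, against 4.4% of all genes. Control hairpin replicate 2 was the lowest of its group for 15 of 18 enzymes, against 40.8% of all genes, and at most 1/2 of either of the others for 8 of 18, against 4.41%. That library also had an Fcgr1 level, a monocyte and macrophage receptor gene, of 1110 CPM, against 6.7 and 23.5 in the other 2 shNC libraries. Its B cell markers summed to 629 CPM against 299 and 199, and its mast cell and eosinophil markers to 49.1 CPM against 8.51 and 2.97. Counts and values that these libraries change are therefore also given without them. LPS liver replicate 1 differed from its group in Kupffer cell markers, which summed to 111 CPM against 303 and 228 in LPS replicates 2 and 3. It was the lowest of its group for 11 of the 17 enzymes, against 41.1% of all genes. Fits without it are given below, and the part of its cell types in the results was not tested. Mitochondrial transcripts took 5.06 to 5.45% of counts in untreated liver and 6.21 to 9.65% after LPS, with 9.65% in LPS replicate 1, and 0.523 to 0.839% with shNC against 0.927 to 0.976% with shGm26917. The groups do not overlap in either comparison, and the part of this difference in the results was not tested.

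The promoters of these genes share a sequence feature. RefSeq (GRCm38.p6) gave a start-site window for 23 of the 28 genes. The table used here held no entry for Fdft1, Fdps, Npc1, Sqle and Stard4. In the 250 bases before the start, the NF-Y box CCAAT, searched on both strands, was present in 20 of 23 (87.0%), against 37.5% of 27025 genes, 40.1% of the genes tested in liver and 40.5% of those tested in macrophages. The 3 windows without these letters were those of Acat2, Ch25h and Scap. The sterol response element core TCACNCCAC was found in the Hmgcs1 window alone, as in 1.22% of all genes, and the shorter form CACNCCAC, which lies within it, in Acat2, Hmgcs1 and Insig1, against 6.05%. The E-box CACGTG was present in Dhcr7, Hsd17b7, Insig1, Sc5d and Scap (21.7%), against 6.86% of all genes. These are letter matches and not measured binding. A relation between these elements and the change of a gene was not tested. The 4 upstream stretches below are shown because they span the range. Hmgcs1 has NF-Y boxes and the sterol response element core, Mvk repeated NF-Y boxes, Insig1 an NF-Y box and an E-box, and Ch25h none of these. Capitals mark the NF-Y box on either strand, the sterol response element core and the E-box. Each runs 5′ to 3′ on the strand of the gene, at chr13:119690101-119690350 (plus strand), chr5:114444019-114444268 (plus), chr5:28071162-28071362 (plus) and chr19:34475165-34475398 (minus).
Hmgcs1: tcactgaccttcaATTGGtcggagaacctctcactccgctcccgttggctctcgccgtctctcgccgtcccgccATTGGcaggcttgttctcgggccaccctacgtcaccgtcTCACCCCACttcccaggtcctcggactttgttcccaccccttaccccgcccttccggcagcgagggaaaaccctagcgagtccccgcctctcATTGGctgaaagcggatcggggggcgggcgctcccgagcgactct
Mvk: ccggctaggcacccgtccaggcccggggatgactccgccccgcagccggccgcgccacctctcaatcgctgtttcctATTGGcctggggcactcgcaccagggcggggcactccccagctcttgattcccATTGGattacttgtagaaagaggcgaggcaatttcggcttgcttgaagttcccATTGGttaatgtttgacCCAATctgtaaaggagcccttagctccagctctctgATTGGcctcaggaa
Insig1: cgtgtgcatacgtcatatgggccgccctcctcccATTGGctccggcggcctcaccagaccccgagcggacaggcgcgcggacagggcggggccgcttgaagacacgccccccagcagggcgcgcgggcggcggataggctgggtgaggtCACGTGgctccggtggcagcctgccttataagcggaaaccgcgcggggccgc
Ch25h: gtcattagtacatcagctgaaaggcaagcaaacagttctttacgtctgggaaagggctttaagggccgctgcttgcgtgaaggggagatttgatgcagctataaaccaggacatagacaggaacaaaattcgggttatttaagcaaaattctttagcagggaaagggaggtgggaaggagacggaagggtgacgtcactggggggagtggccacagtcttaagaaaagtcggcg

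In liver, the question was which transcripts differ 2 h after LPS. Of the 27 members tested, 13 fell (48.1%) and 1, Ch25h, rose, while 13 did not pass an adjusted p of 0.05 (edgeR's quasi-likelihood test, Benjamini-Hochberg over 13869 genes). Over all genes tested, 22.1% fell and 23.3% rose, so 45.3% changed in all, against 51.9% of the members. The median log2 fold change (LPS minus untreated) of the members was -0.82, also with Ch25h at its bound, against -0.06 for all genes. The groups did not overlap, with LPS lower, for 14 of 27, against 28.4% of all genes, and with LPS higher for 1, against 29.4%. Among the 18 synthesis enzymes, 17 were tested, 8 fell and the other 9 were not past the threshold, with a median of -1.53. Without untreated replicate 3 the same number fell, but the median of the 17 was -0.14. Their summed level was 627, 887 and 1940 CPM in the 3 untreated libraries and 581, 711 and 652 CPM in the 3 LPS libraries, so the sums overlap between the groups and untreated replicate 3 lies far above the rest.

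**Figure D1:**
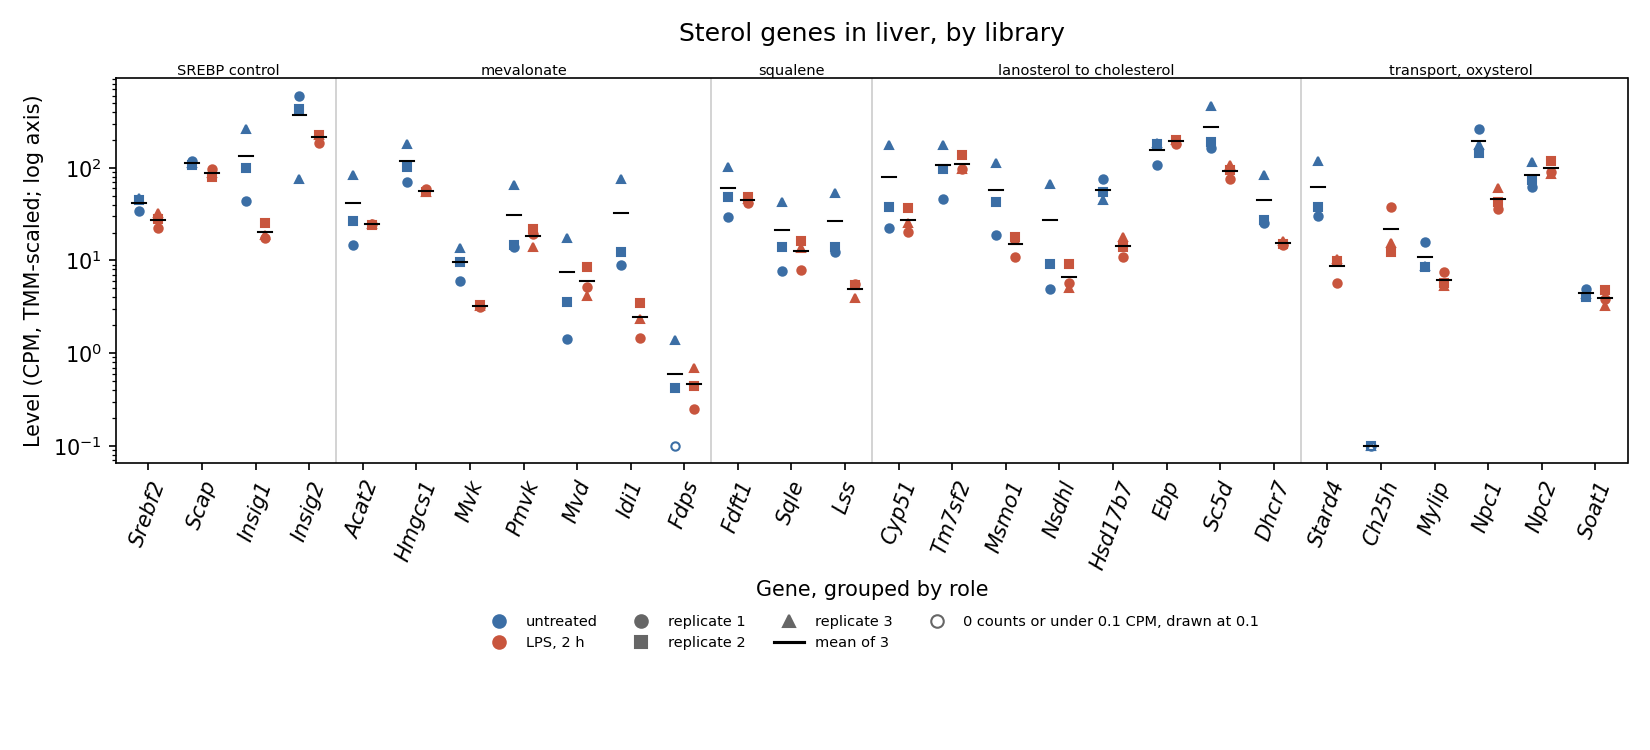
Level of each of the 28 genes in every liver library (vertical axis, CPM with TMM scaling, log axis), with genes grouped by role along the horizontal axis; blue is untreated, red is LPS for 2 h, marker shapes are replicates 1 to 3 and black bars are means of 3. Untreated replicate 3 (blue triangles) lies above the other untreated libraries for 16 of the 17 tested enzymes, and Ch25h has no count in any untreated library.

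Of the control genes, Srebf2 and Insig1 fell. Srebf2 (chr15:82147181-82205379) encodes the SREBP2 precursor. It was at 33.9, 44.4 and 46.7 CPM in untreated liver and at 22.3, 28.2 and 32.4 CPM after LPS, with no overlap and a log2 fold change of -0.59 (SE 0.21, edgeR adjusted p = 0.0431). Insig1 (chr5:28071363-28078662), whose product retains SCAP and which is itself a target of SREBP, was at 44.2, 99.8 and 260 CPM untreated and at 17.3, 25.1 and 18.8 CPM after LPS. All LPS libraries lay below all untreated ones, although the untreated libraries themselves spanned a wide range (log2 fold change -2.72, SE 0.56, edgeR adjusted p = 0.00494). Scap (chr9:110333288-110384950), the escort of SREBP, was at 119, 108 and 113 CPM untreated and 96.4, 78.9 and 86.8 CPM after LPS. The groups did not overlap, but the difference was not past the threshold (-0.38, SE 0.17, edgeR adjusted p = 0.105), and 13.2% of the exon bases of Scap lie opposite the unclassified transcript 5830462I19Rik.

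Insig2 (chr1:121304353-121332589), the INSIG form expressed at high levels in liver, was at 602, 426 and 76.2 CPM in untreated liver and 187, 225 and 226 CPM after LPS. Untreated replicate 3 lay below every LPS library and the other 2 above, and the difference was not past the threshold (-0.79, SE 0.58, edgeR adjusted p = 0.296). Per kilobase of exon, the ratio of the Insig1 level to the Insig2 level was 0.0824, 0.263 and 3.83 in the 3 untreated libraries and 0.104, 0.125 and 0.0934 in the LPS libraries, so untreated replicate 3 alone carried more Insig1 than Insig2. Without that library Insig2 fell (log2 fold change -1.27, edgeR adjusted p = 0.0027), Insig1 still fell (-1.82), and Srebf2 no longer passed (adjusted p = 0.0925). Srebf2 was also past no threshold when untreated replicate 2 or any LPS library was left out (adjusted p 0.0575 to 0.129).

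In the mevalonate segment, Hmgcs1, Mvk and Idi1 fell, and Acat2, Pmvk and Mvd were not past the threshold. Hmgcs1 (chr13:119690379-119708260), the cytosolic HMG-CoA synthase whose upstream bases are printed above, was at 71.1, 101 and 179 CPM untreated and 58.6, 54.9 and 55.0 CPM after LPS (-1.06, SE 0.31, edgeR adjusted p = 0.0233). Of its exon bases, 12.1% lie opposite the antisense gene Gm48342. Mvk (chr5:114444269-114460591), mevalonate kinase, was at 6.01, 9.64 and 13.5 CPM untreated and 3.13, 3.27 and 3.23 CPM after LPS, so the LPS libraries were nearly level and all below the untreated ones (-1.60, SE 0.31, edgeR adjusted p = 0.00368). Idi1 (chr13:8885501-8892451), the isomerase that makes the allylic isoprenoid unit, had the largest fall among these 28 genes. It was at 8.83, 12.4 and 75.3 CPM untreated and 1.44, 3.50 and 2.34 CPM after LPS, a level 13.2-fold lower (-3.72, SE 0.83, edgeR adjusted p = 0.00702). Without untreated replicate 3 the log2 fold change of Idi1 was -2.12. Idi1 has processed pseudogenes of high identity, Gm13502, Gm35570 and Gm8911, so its reads could be split between copies.

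Acat2, the cytosolic acetyl-CoA acetyltransferase, Pmvk, phosphomevalonate kinase, and Mvd, the decarboxylase of the pathway, had log2 fold changes of -0.76, -0.75 and -0.33 with edgeR adjusted p of 0.27 to 0.747. Each was highest in untreated replicate 3, at 83.7, 64.5 and 17.5 CPM, and without that library their values were positive, at 0.25, 0.36 and 1.26, and not past the threshold. Acat2 is 97.7% identical to Acat3 over 65.6% of its transcript, so its counts may mix with those of that copy, which had 16082 liver counts against 4051 for Acat2. Fdps, farnesyl diphosphate synthase, was not tested in liver because it did not pass the filter on low counts: it was at 0, 0.417 and 1.39 CPM untreated and 0.251, 0.444 and 0.696 CPM after LPS. It had 64 counts over the 6 liver libraries and 6739 over the 6 macrophage libraries. It has processed pseudogenes up to 98.9% identical, and 26.7% of its exon bases are shared on the same strand with Gm43738, so this level is uncertain.

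From squalene to lanosterol, Lss fell and Fdft1 and Sqle were not past the threshold. Lss (chr10:76531588-76557138), lanosterol synthase, was at 12.2, 13.8 and 53.1 CPM untreated and 5.52, 5.38 and 3.92 CPM after LPS, with no overlap (-2.41, SE 0.55, edgeR adjusted p = 0.00787). Without untreated replicate 3 its log2 fold change was -1.39. Fdft1, squalene synthase, and Sqle, squalene epoxidase, had log2 fold changes of -0.41 and -0.78 with edgeR adjusted p of 0.413 and 0.293. Their LPS levels of 41.3 to 48.8 CPM and 7.84 to 16.3 CPM lay inside the untreated range, and without untreated replicate 3 the values were 0.21 and 0.23. Of the exon bases of Fdft1, 18.3% lie opposite the cathepsin gene Ctsb, and the labels do not say whether counting used strand.

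From lanosterol to cholesterol, Msmo1, Hsd17b7, Sc5d and Dhcr7 fell. Msmo1 (chr8:64718139-64733792), the sterol C4-methyl oxidase, was at 18.6, 42.9 and 112 CPM untreated and 10.8, 18.1 and 16.7 CPM after LPS (-1.93, SE 0.56, edgeR adjusted p = 0.0220). Hsd17b7 (chr1:169949535-169969241), which reduces the 3-keto sterol during C4 demethylation, was at 75.0, 54.5 and 44.9 CPM untreated and 11, 14.1 and 17.8 CPM after LPS. It was the enzyme whose untreated level was lowest, not highest, in replicate 3, and it had the lowest adjusted p of the enzymes (-2.02, SE 0.26, edgeR adjusted p = 0.000419). Sc5d (chr9:42251595-42264256), the sterol C5 desaturase, was at 162, 192 and 462 CPM untreated and 75.0, 93.5 and 106 CPM after LPS (-1.57, SE 0.39, edgeR adjusted p = 0.0115). Dhcr7 (chr7:143823145-143848410), the 7-dehydrocholesterol reductase of the last steps, was at 25.6, 27.3 and 82.6 CPM untreated and 14.8, 14.9 and 16.1 CPM after LPS (-1.57, SE 0.43, edgeR adjusted p = 0.0168). For all 4 genes every LPS library lay below every untreated library.

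The other 4 enzymes of this segment were not past the threshold. Cyp51, the lanosterol demethylase, and Nsdhl, the C4 decarboxylating dehydrogenase, had log2 fold changes of -1.53 and -2.02 with edgeR adjusted p of 0.0937 and 0.0817. Both were highest in untreated replicate 3, at 176 and 67.2 CPM against at most 38.2 and 9.27 CPM in the other untreated libraries, and without it their values were -0.14 and -0.08. Tm7sf2, a sterol C14 reductase, and Ebp, the sterol isomerase, had values of 0.04 and 0.31 (edgeR adjusted p 0.949 and 0.332). With library totals as the scaling these turned to -0.37 and -0.10, and Tm7sf2 shares 12.1% of its exon bases on the same strand with Vps51.

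Among the transport and oxysterol genes, Ch25h (chr19:34473778-34475164) rose. It encodes the enzyme that makes 25-hydroxycholesterol. It had no count in any of the 3 untreated libraries and 37.7, 12.4 and 15.4 CPM after LPS, 1068 counts in all. Against a floor of 3 counts over the untreated group this is at least 477-fold higher (edgeR adjusted p = 0.000178). Leaving out LPS replicate 1, the highest, gave at least 307-fold, and leaving out an untreated library, which raises the floor, gave at least 312- to 322-fold. An opposite-strand transcript, Gm26902, shares 11.5% of its exon bases.

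Stard4, Npc1 and Mylip fell. Stard4 (chr18:33199355-33213862), a soluble carrier of cholesterol between membranes, was at 30.1, 38.0 and 117 CPM untreated and 5.77, 9.82 and 10.4 CPM after LPS (-2.83, SE 0.52, edgeR adjusted p = 0.00278). Without untreated replicate 3 it was still lower, at -1.97. Npc1 (chr18:12189692-12236400), the membrane protein that exports cholesterol from lysosomes, was at 261, 145 and 174 CPM untreated and 35.9, 42.9 and 61.0 CPM after LPS, and its highest LPS library was well under its lowest untreated one (-2.05, SE 0.29, edgeR adjusted p = 0.000781). Mylip, a ubiquitin ligase that directs lipoprotein receptors to degradation, fell by 0.82 on the log2 scale (SE 0.29, edgeR adjusted p = 0.0466), from 8.44 to 15.7 CPM untreated to 5.32 to 7.46 CPM after LPS. Npc2, the soluble lysosomal partner of Npc1, and Soat1, the enzyme that esterifies cholesterol, had log2 fold changes of 0.23 and -0.16 (edgeR adjusted p 0.493 and 0.623). In the same LPS libraries, then, Npc1 fell and Npc2 was not past the threshold, and the difference between them was not tested.

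**Figure D2:**
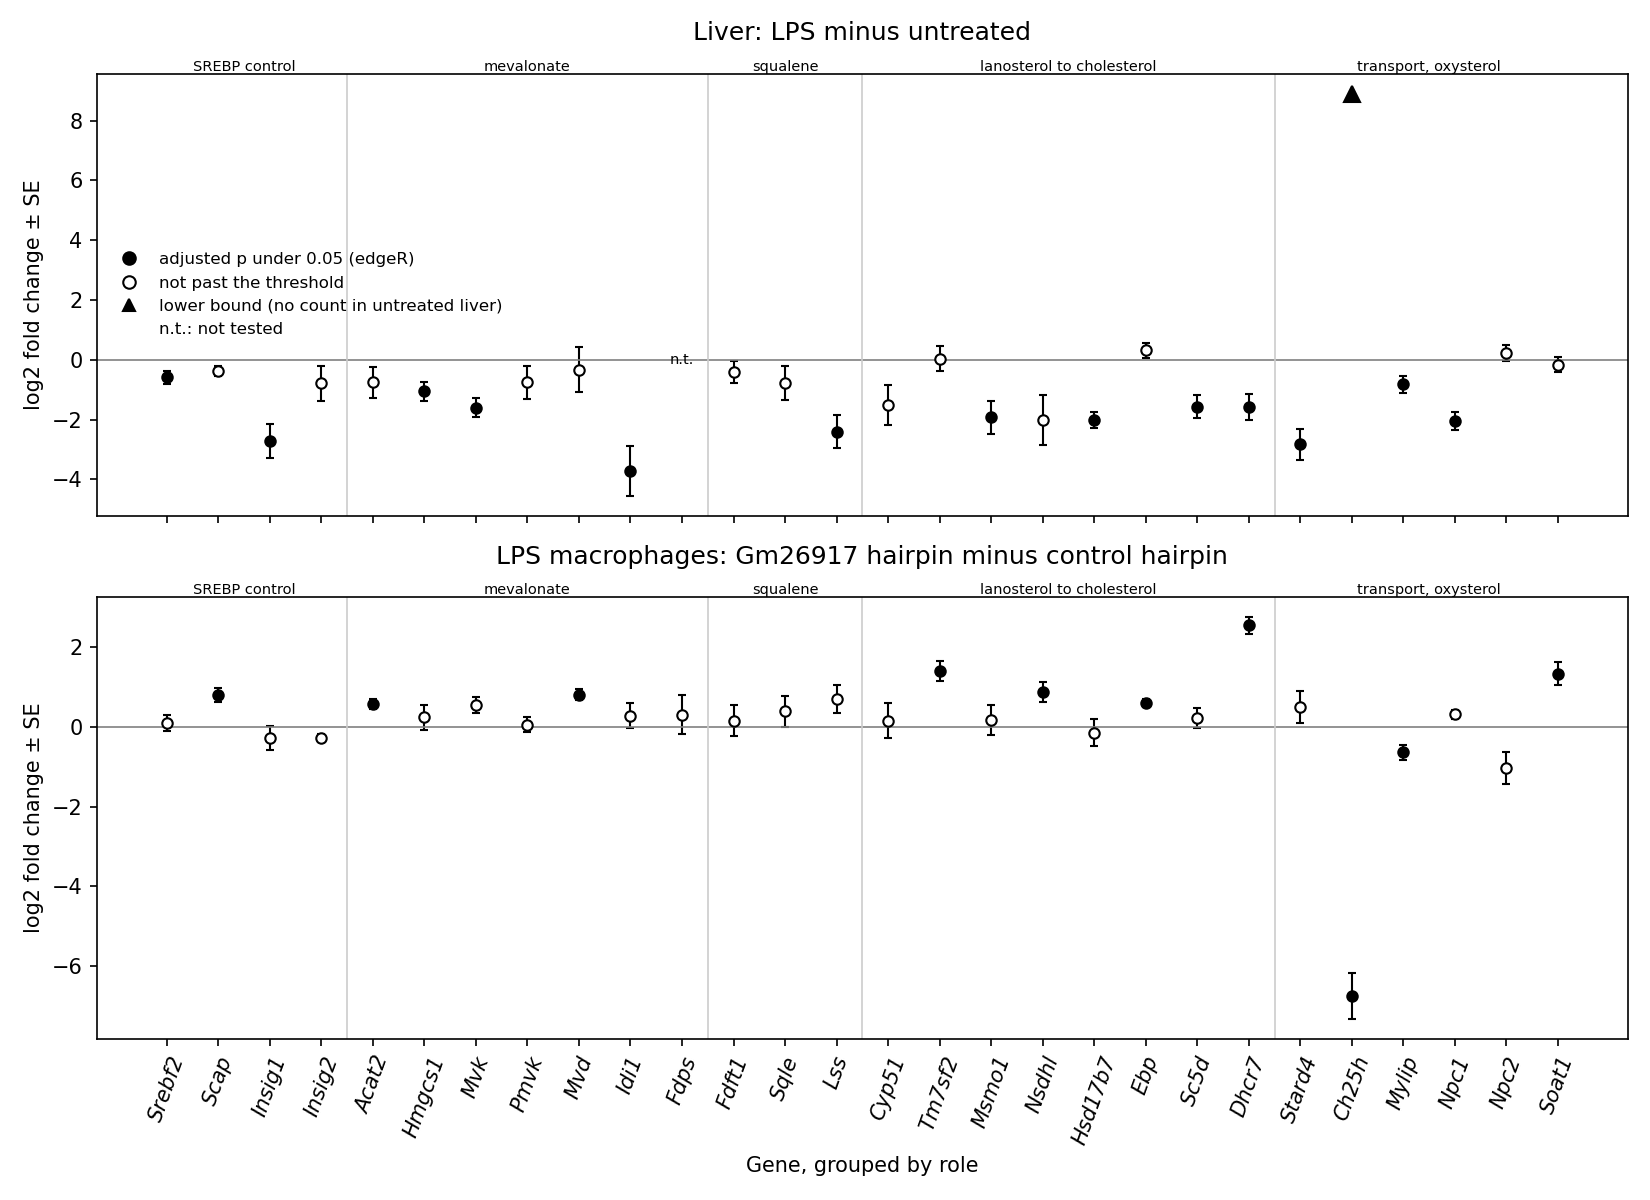
Log2 fold change of each gene (vertical axis, error bars are 1 SE from edgeR), for LPS minus untreated in liver (upper panel) and Gm26917 hairpin minus control hairpin in LPS macrophages (lower panel), 3 libraries a group; filled points passed an adjusted p of 0.05, open points did not, the triangle is the lower bound for Ch25h and n.t. marks Fdps, which was not tested in liver. In liver 13 filled points lie below 0, and in macrophages 8 lie above 0 and 2, Ch25h and Mylip, below.

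Leaving out untreated replicate 3 left 13 members lower, 12 of them among the 13 above, with Srebf2 lost and Insig2 gained, and Ch25h was still higher. The falls were smaller for most enzymes: the log2 fold change was -0.62 for Hmgcs1, -1.28 for Mvk, -1.01 for Msmo1, -0.95 for Sc5d and -0.79 for Dhcr7, and the median of the members was -0.50. For Hsd17b7 and Npc1 the values without it were -2.18 and -2.12, as large as with it. Leaving out LPS replicate 1 left 7 members lower, without Dhcr7, Hmgcs1, Msmo1, Mylip, Sc5d and Srebf2 (edgeR adjusted p 0.0506 to 0.129), and leaving out LPS replicate 2 or 3 left 9. Hmgcs1 and Mylip were lost in both of these, Dhcr7 without LPS replicate 2, Msmo1 without LPS replicate 3, and Mylip also without untreated replicate 1 (-0.48). Mvk, Idi1, Lss, Hsd17b7, Insig1, Stard4, Npc1 and Ch25h were called in all 6 fits with 1 library left out. Over all genes, calls were also fewer in each such fit, as given below (43.8% in either direction without untreated replicate 3, against 45.3%). The share of all genes called lower in each of these fits is not given here beside the member counts. Whether members lost calls more often than other genes was not tested. With library totals in place of TMM scaling the median of all genes moved from -0.06 to -0.49, 16 members were lower, and genes called split into 1943 higher and 5305 lower, against 3227 higher and 3060 lower with TMM.

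**Figure D3:**
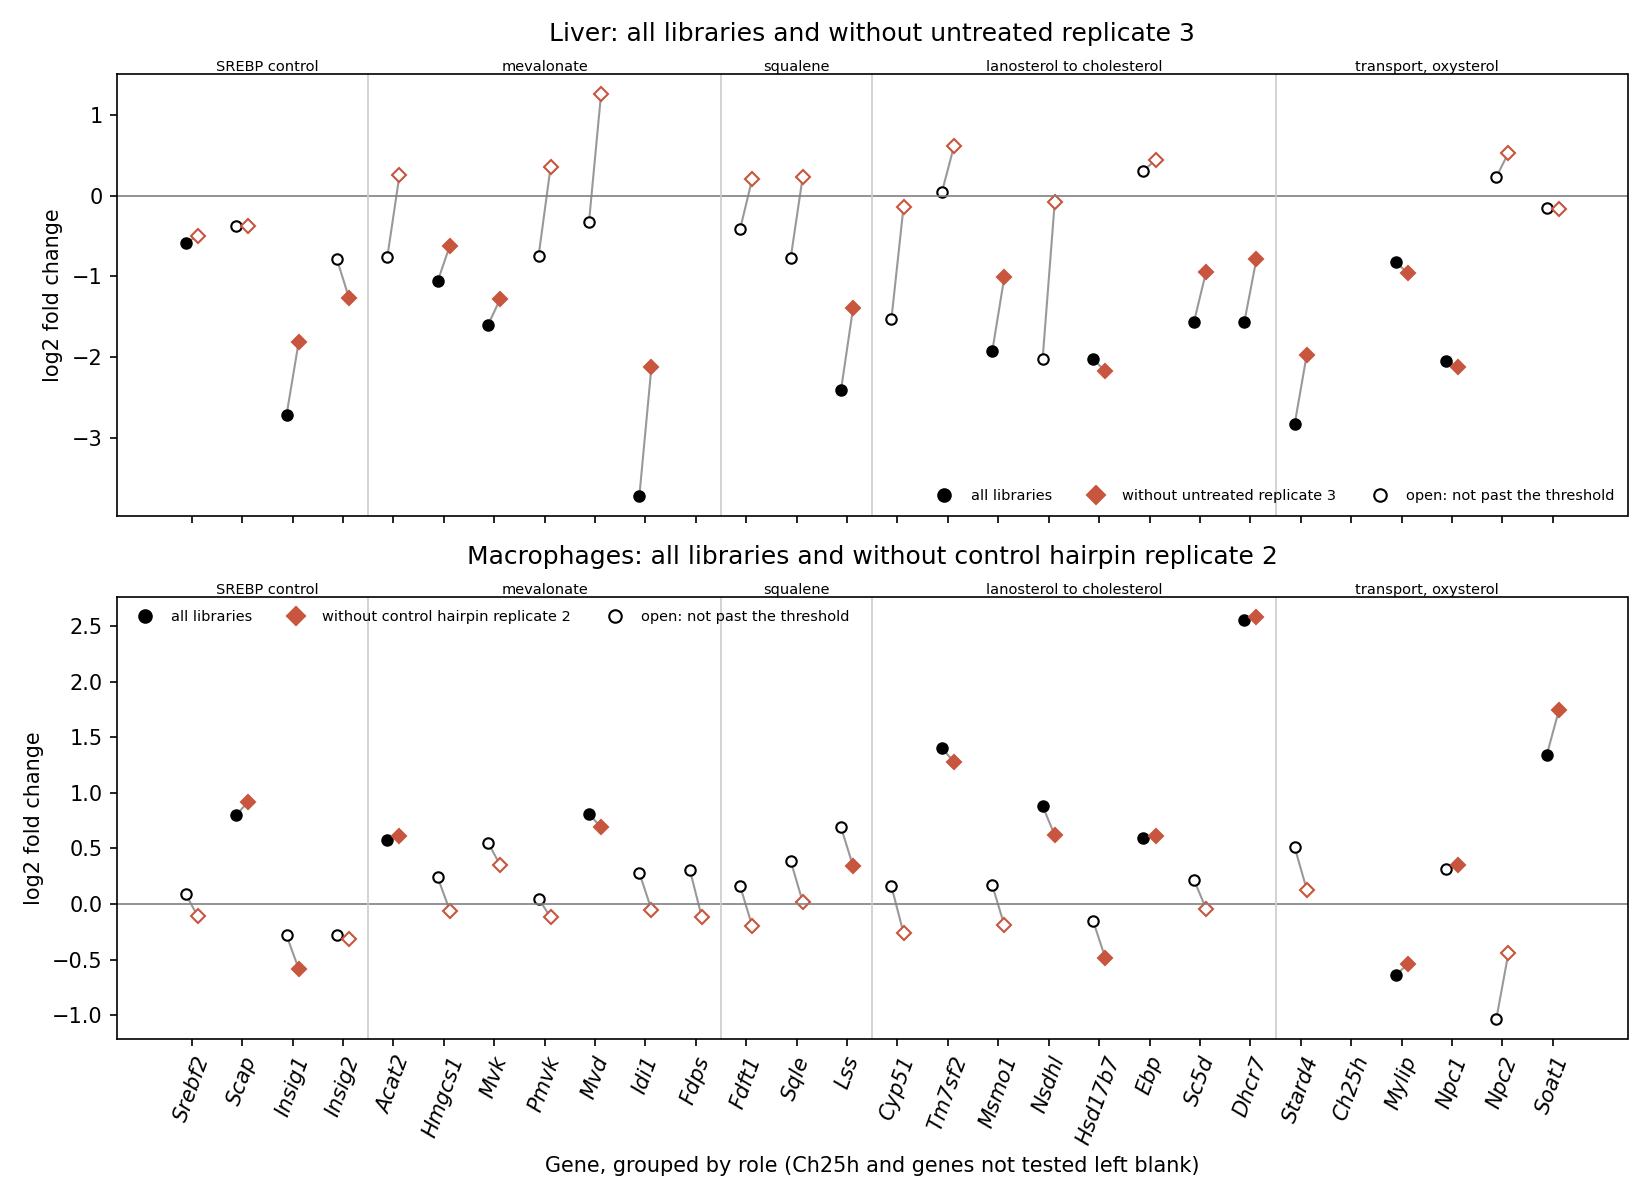
Log2 fold change of each gene with all libraries (black circles) and with 1 library left out (red diamonds), for untreated replicate 3 in liver (upper panel) and control hairpin replicate 2 in macrophages (lower panel); filled symbols passed an adjusted p of 0.05, and Ch25h and genes not tested are left blank. In liver Cyp51 moves from -1.53 to -0.14 while Hsd17b7 and Npc1 hardly move, and in macrophages Dhcr7 moves from 2.55 to 2.58.

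Over 7 further lists of genes around the pathway, 80 were tested in liver, of which 15% rose, 25% fell and 40% changed in all, against 23.3%, 22.1% and 45.3% of all genes tested. Without untreated replicate 3 the share changed was 36.2%, against 43.8% of all genes. Of 8 other sterol synthesis genes, 2 fell, among them Por, the electron donor of microsomal P450 enzymes such as CYP51 (662 ± 294 to 324 ± 25.4 CPM, SD, n = 3; log2 fold change -1.03, and -0.60 without untreated replicate 3), and without that library 1 fell. The list's median was -0.73, and -0.50 without that library. Of 13 genes of SREBP processing and sterol-linked degradation in the endoplasmic reticulum, 3 rose and 5 fell. Syvn1, a ubiquitin ligase of that membrane, rose by 3.15 on the log2 scale, Trim21, a ubiquitin ligase best known as an intracellular antibody receptor, rose by 4.36, and Paqr3, a Golgi protein that binds SCAP and SREBP, fell by 2.21. Of 12 tested lipoprotein uptake genes, 2 rose and 3 fell. Olr1, a receptor for oxidised low-density lipoprotein, was at 0.0455 ± 0.0788 CPM untreated and 19.7 ± 4.27 CPM after LPS (SD, n = 3).

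Of 11 genes of liver X receptor signalling and efflux, 2 rose and 4 fell. Abca1, the exporter of cholesterol to apolipoprotein A1, rose by 1.99 on the log2 scale, Abcg8, a partner in biliary sterol export, fell by 1.83 (-0.89 without untreated replicate 3), and Lpcat3, a phospholipid acyltransferase, fell by 2.22. Of 14 tested carriers that move sterol between membranes, 1 rose and 4 fell: Gramd1a, which brings cholesterol from the plasma membrane to the endoplasmic reticulum, rose by 3.14, and the oxysterol-binding protein relatives Osbpl5 and Osbpl2 fell by 1.47 and 1.12. Osbpl5 was not past the threshold without untreated replicate 3 (-1.01, edgeR adjusted p = 0.0807). Of 7 tested genes of oxysterol and ester metabolism, Soat2, the cholesterol esterification enzyme of hepatocytes and intestine, rose (37.4 ± 5.96 to 139 ± 77.8 CPM, SD, n = 3; log2 fold change 1.90, edgeR adjusted p = 0.00423) and the other 6 were not past the threshold. Its relative Soat1 was not past the threshold, and the difference between them was not tested.

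In macrophages, where all cells had LPS, the comparison was between the hairpin against Gm26917 and the control hairpin. Of the 28 members, 8 were higher with shGm26917 (28.6%), 2 were lower (7.14%) and 18 were not past the threshold, in the same edgeR test with p-values adjusted over 12876 genes. Over all genes tested 12.6% were higher and 11.1% lower, so 23.7% changed in all, against 35.7% of the members. The median log2 fold change (shGm26917 minus shNC) of the members was 0.29, against 0.00 for all genes. The groups did not overlap, with shGm26917 higher, for 12 members, against 24.2% of all genes, and with it lower for 4, against 21.7%. Of the 18 synthesis enzymes 6 were higher and 12 were not past the threshold, with a median of 0.35, and of -0.01 without control hairpin replicate 2. Their summed level was 937, 454 and 1070 CPM with shNC and 1100, 1040 and 1080 CPM with shGm26917. These sums overlap: shNC replicates 1 and 3 lie close to the shGm26917 libraries, and shNC replicate 2 lies far below all others.

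**Figure D4:**
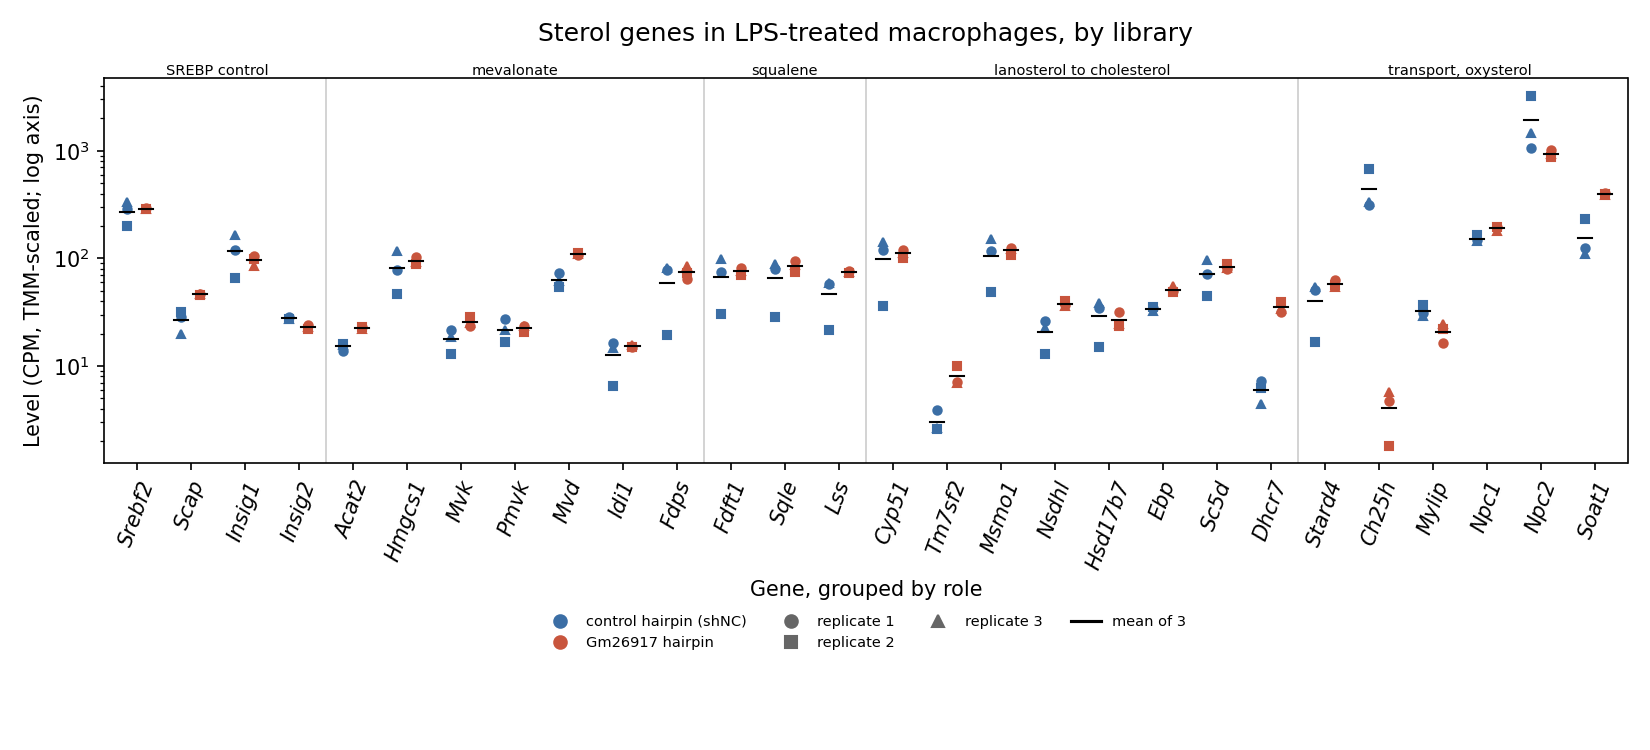
Level of each of the 28 genes in every macrophage library (vertical axis, CPM with TMM scaling, log axis), with genes grouped by role along the horizontal axis; colours are the control hairpin and the Gm26917 hairpin, all with LPS for 2 h, marker shapes are replicates 1 to 3 and black bars are means of 3. Control hairpin replicate 2 is the lowest of its group for 15 of 18 enzymes, and the groups are far apart for Dhcr7 and Ch25h.

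Of the control genes only Scap passed the threshold. Scap was at 28.7, 31.5 and 19.8 CPM with shNC and 46.3, 45.6 and 47.1 CPM with shGm26917, with no overlap (log2 fold change 0.80, SE 0.18, edgeR adjusted p = 0.0231). Srebf2 was at 285, 199 and 333 CPM with shNC and 295, 285 and 288 CPM with shGm26917, inside the shNC range (0.09, SE 0.20, edgeR adjusted p = 0.776). Insig1 was at 119, 66.3 and 166 CPM and then 105, 99.6 and 84.6 CPM, again inside that range (-0.28, SE 0.31, edgeR adjusted p = 0.540). Insig2 was slightly below every shNC library in each shGm26917 library, at 28.8, 27.5 and 27.4 CPM against 23.8, 21.9 and 23.1 CPM (-0.28, SE 0.11, edgeR adjusted p = 0.0981). Per kilobase of exon the Insig1 level was above the Insig2 level in every macrophage library, with ratios of 2.71 to 6.8 with shNC and 4.11 to 5.11 with shGm26917.

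Dhcr7 had the largest rise of these genes in macrophages. It was at 7.24, 6.28 and 4.39 CPM with shNC and 31.9, 39.7 and 33.6 CPM with shGm26917, 5.87-fold higher, and the lowest shGm26917 library was far above the highest shNC library (2.55, SE 0.21, edgeR adjusted p = 0.00235). Tm7sf2 was at 3.89, 2.57 and 2.63 CPM with shNC and 7.08, 9.96 and 6.97 CPM with shGm26917, also without overlap (1.40, SE 0.26, edgeR adjusted p = 0.0139). Tm7sf2 was not past the threshold without shGm26917 replicate 2 (1.22, adjusted p = 0.0614). The other called enzymes rose less: Nsdhl by 0.88, Mvd by 0.81, Ebp by 0.59 and Acat2 by 0.58 on the log2 scale, with edgeR adjusted p of 0.0484, 0.00982, 0.0112 and 0.0188. The 6 called enzymes belong to the mevalonate segment (Acat2, Mvd) and to the last segment (Tm7sf2, Nsdhl, Ebp, Dhcr7). The remaining 12 enzymes had log2 fold changes from -0.15 for Hsd17b7 to 0.69 for Lss and edgeR adjusted p of 0.10 to 0.866.

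Control hairpin replicate 2 was the lowest shNC library for 15 of the 18 enzymes, all of these 12 among them. Cyp51, for example, was at 120, 36.1 and 142 CPM with shNC and 119, 101 and 113 CPM with shGm26917. Without control hairpin replicate 2 the log2 fold changes of Cyp51, Fdft1, Msmo1, Fdps, Pmvk, Hmgcs1, Idi1 and Sc5d were -0.26, -0.20, -0.19, -0.12, -0.12, -0.06, -0.05 and -0.04. In that fit the median of the members was -0.05, 10 members were higher, the 8 above plus Lss (0.34) and Npc1 (0.35), and 4 were lower, Ch25h and Mylip plus Hsd17b7 (-0.48) and Insig1 (-0.58). Genes called over the whole table rose from 3049 to 5236.

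Among the transport and oxysterol genes, Ch25h was lower and Soat1 higher with shGm26917. Ch25h was at 316, 681 and 334 CPM with shNC and 4.73, 1.81 and 5.78 CPM with shGm26917, 108-fold lower (-6.75, SE 0.58, edgeR adjusted p = 0.00235). It was the second highest member per kilobase of exon with shNC, at 320 CPM per kilobase, and rank 27 of 28 with shGm26917, at 2.96. Control hairpin replicate 2 held the highest Ch25h level, and without it the log2 fold change was -6.32. Soat1 (chr1:156424525-156474331) was at 125, 233 and 110 CPM with shNC and 402, 395 and 390 CPM with shGm26917, with tight values in the hairpin group (1.34, SE 0.29, edgeR adjusted p = 0.0201). Without control hairpin replicate 2 it was 1.74, and it did not pass when any other single library was left out (adjusted p 0.0549 to 0.0727).

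Mylip was lower, at 30.8, 37.2 and 29.4 CPM with shNC and 16.3, 22.0 and 24.3 CPM with shGm26917 (-0.64, SE 0.18, edgeR adjusted p = 0.0476). The call was lost with library totals, with no filter on low counts, and when any library but control hairpin replicate 2 was left out. Npc2 was at 1050, 3260 and 1460 CPM with shNC and 1020, 868 and 935 CPM with shGm26917, where replicate 2 again stood apart (-1.03, SE 0.41, edgeR adjusted p = 0.114). Npc1 and Stard4 had log2 fold changes of 0.32 and 0.51 (edgeR adjusted p 0.0890 and 0.386). Per kilobase of exon Npc2 was the most abundant member in both groups, at 353 and 173 CPM per kilobase.

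Calls in macrophages, of members and of all genes, depended on which single library was left out. Only Dhcr7 and Ch25h of the 10 were called in all 6 such fits. Without control hairpin replicate 1, 5 members were higher, and without control hairpin replicate 3, 6 were. Without shGm26917 replicate 1, 2 or 3 the numbers were 4, 2 and 3. With all libraries 8 were higher (28.6%, against 12.6% of all genes). Members lower were 1 in each of these 5 fits. The number of genes called over the whole table also moved in such fits, as given below as a range. The share of all genes called higher or lower in each of these 5 fits is not given here. The member counts therefore do not show whether members differ from other genes in a fit. Whether members lost calls more often than other genes was not tested. With library totals the median of all genes moved from 0.00 to 0.29 and genes called split into 3135 higher and 794 lower, against 1618 higher and 1431 lower with TMM.

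Of the 75 genes of the wider lists tested in macrophages, 13.3% were higher, 6.67% lower and 20% changed in all, against 12.6%, 11.1% and 23.7% of all genes tested. Without control hairpin replicate 2 the share changed was 42.1% of 76, against 39.6% of all genes. Of 8 other sterol synthesis genes 3 were higher, among them Acat1, the mitochondrial acetyl-CoA acetyltransferase (10.1 ± 1.92 to 23.2 ± 3.98 CPM, SD, n = 3; log2 fold change 1.20). Of 7 tested genes of oxysterol and ester metabolism 2 were higher and the other 5 were not past the threshold. Cyp27a1, the sterol 27-hydroxylase, went from 0.697 ± 0.275 to 8.03 ± 2.94 CPM (SD, n = 3; log2 fold change 3.51, edgeR adjusted p = 0.00428), and Nceh1, a hydrolase of cholesteryl esters, from 11 ± 7.27 to 99.1 ± 16.5 CPM (3.17, edgeR adjusted p = 0.00679, and 3.84 without control hairpin replicate 2). Thus the transcript of the esterifying enzyme Soat1 and that of the ester hydrolase Nceh1 were both higher, and of the oxysterol-forming enzymes Cyp27a1 was higher and Ch25h lower.

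Of 10 tested lipoprotein uptake genes 2 were higher and 1 lower. Lipa, the lysosomal acid lipase, and Scarb1, a high-density lipoprotein receptor, were higher by 1.62 and 1.03 on the log2 scale. Of 13 tested membrane carriers 3 were higher and 2 lower, with Scp2 at 0.89, Osbpl8 at 0.63 and Gramd1a at -0.81. Of 13 genes of SREBP processing and degradation 1, Syvn1, was lower (-1.05), and of 9 tested liver X receptor and efflux genes 1, Lpcat3, was lower (-0.54). Without control hairpin replicate 2 these 2 lists had 4 and 5 genes called, the uptake list 5, and the list of oxysterol and ester metabolism 3. The monocyte and macrophage markers Csf1r, Cd68, Lyz2 and Tyrobp were also higher with shGm26917 and Cd14 was lower, 5 of 10 in all, and their part in these differences was not tested.

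The 2 comparisons were fitted and scaled separately and share no samples. Of the 13 that fell in liver, Dhcr7 was higher and Mylip lower in macrophages with shGm26917, and 11 were not past the threshold there. Of the 13 not past the threshold in liver, 7 were higher in macrophages: Acat2, Mvd, Tm7sf2, Nsdhl, Ebp, Scap and Soat1. None of these 7 was called in all 6 macrophage fits with 1 library left out. Over all genes tested in macrophages, 12.6% were higher and 11.1% lower. The same shares among genes grouped by their liver call are not given here. Ch25h passed in both, higher in LPS liver than in untreated liver and lower in LPS macrophages with shGm26917 than with shNC. These contrasts address different treatments, and the difference between them was not tested.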

How the data were processed

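The deposited values were whole-number counts of reads per gene from polyA RNA, 1 table per sample. STAR, mm10 and featureCounts 1.6.3 appear in the submitters' processing notes. Their settings, strand use and the handling of multiply mapped reads were not stated there. From these counts, log2 fold changes, standard errors and p-values were computed with edgeR 4.0.16 in R 4.3.3 (TMM scaling, filterByExpr, quasi-likelihood F test), group alone in the model, for each tissue separately, with Benjamini-Hochberg adjustment over all genes tested and a threshold of 0.05. Levels are CPM with TMM-scaled totals. Alternatives were DESeq2 1.42.0, RLE factors, library totals, no filter, a filter of 1 CPM in 3 libraries, the replicate number as a block, and each library left out. The counts and medians of the wider lists and the enzyme medians without the library that stood apart were added after seeing the data.

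Gene positions and exon lengths came from GENCODE M21 (GRCm38), near copies from BLAST 2.17.0 at 90% identity or more, and promoters from RefSeq. The genes and lists, which also cover isoprenoid, Kupffer cell, sinusoidal endothelial, stromal and cholangiocyte genes, were chosen with earlier results of these data known. Members that passed with a log2 change of 1 or more in size, and the SREBP control genes, were described by library; up to 3 genes past the threshold with the largest change were named per pathway list, and some genes that this rule picks are not reported here.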

Additional observations from a re-analysis of the deposited data

How the results depend on the processing

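Fdps had 64 counts over the liver libraries and was not tested there, and groups of 3 limited every test. In liver, leaving out a library gave 4865 to 6227 genes called, 8 to 15 members called and 7 to 14 members lower. In macrophages it gave 839 to 5236 genes, 3 to 14 members called, 2 to 10 higher and 1 to 4 lower. Members lower in macrophages were 1 with library totals, 1 with no filter and 1 with the replicate block. Whether replicate numbers pair the samples is unstated in the labels, and deviations from means of 3 samples cannot decide it. Same-numbered samples deviated with correlations of 0.12, 0.05 and -0.08 in liver and -0.04, 0.24 and 0.18 in macrophages. Not every sample correlated best with its own number, but 0.24 and 0.18 were the largest values in macrophages. The replicate block gave 5754 genes in liver against 6287 and 2594 in macrophages against 3049. Signs turned as follows, and none of these values passed the threshold except where the text above says so; the cause was not tested. With library totals, liver Tm7sf2 was -0.37, Ebp -0.10 and Npc2 -0.19, and macrophage Hsd17b7 0.14, Insig1 0.01 and Insig2 0.01. With the replicate block liver Mvd was 0.37. Leaving out a library, liver Tm7sf2 ran from -0.33 to 0.61, Acat2 from -1.17 to 0.25, Pmvk from -1.11 to 0.36, Mvd from -0.82 to 1.26, Fdft1 from -0.74 to 0.21 and Sqle from -1.18 to 0.23. In macrophages Srebf2 ran from -0.11 to 0.25, Hmgcs1 from -0.06 to 0.59, Pmvk from -0.12 to 0.22, Idi1 from -0.05 to 0.50, Fdps from -0.12 to 0.59, Fdft1 from -0.20 to 0.53, Cyp51 from -0.26 to 0.50, Msmo1 from -0.19 to 0.51, Sc5d from -0.04 to 0.50, Hsd17b7 from -0.48 to 0.09 and Insig1 from -0.58 to 0.04.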

Other observations

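Farnesyl and geranylgeranyl diphosphate, made within the same pathway, also feed protein prenylation, dolichol and ubiquinone. Of 15 genes of these branches, all tested, 3 rose and 2 fell in LPS liver (33.3%, against 45.3% of all genes tested), and the list's median log2 fold change was 0.08. Pdss1, a subunit of the synthase for the ubiquinone side chain, rose by 1.37 on the log2 scale (1.88 ± 0.106 to 4.85 ± 0.921 CPM, SD, n = 3), Rce1, the protease that trims prenylated proteins, rose by 1.27, and Dolk, dolichol kinase, fell by 1.12. In macrophages 0 of the 15 passed the threshold by edgeR's quasi-likelihood test and 0 by DESeq2, 3 had an unadjusted p under 0.05, and the median was -0.03, where 23.7% of all genes were called. Without control hairpin replicate 2, 4 of the 15 were called (26.7%), all lower, against 39.6% of all genes called in either direction.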
